A study of Mus musculus with 31 samples.

Results

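The 10 genes described here mark the glutamatergic principal neurons of the basolateral amygdala (BLA) and of the neighbouring cortical-type forebrain, and they were followed in the BLA of 31 mice. They are Slc17a7, Neurod2, Neurod6, Tbr1, Rspo2, Lypd1, Etv1, Fezf2, Grp and Rorb. They were chosen by name for their use as markers, with earlier results of these data known. All 10 of 10 were found among the 48709 genes of the count tables and all 10 were among the 17428 genes with enough reads to be tested. The RNA was sequenced by QuantSeq, which reads the 3′ end of each polyadenylated transcript. Of these mice 16 were WT and 15 were CYFIP1 OE, which carry human CYFIP1 on a bacterial artificial chromosome placed by pronuclear injection, on a C57BL6/N background and with each line founded by 1 animal. The line labelled 1 had 8 WT mice (59 to 61 days old) and 7 CYFIP1 OE mice (59 to 77 days old), and the line labelled 3 had 8 WT mice (58 to 60 days old) and 8 CYFIP1 OE mice (58 to 64 days old). The 4 oldest animals, at 77 days, were all CYFIP1 OE and of line 1. Each group held males and females, and punches from the left and the right BLA were pooled for each mouse. The question was how far the principal neuron signal of these punches varied, which of the genes varied together, and whether any of them differed between CYFIP1 OE and WT mice in either line.

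The BLA is built largely from glutamatergic projection neurons that share their origin and much of their gene expression with the neurons of the cortex. They load glutamate into synaptic vesicles with the transporter encoded by Slc17a7 and keep the transcription factors Neurod2, Neurod6 and Tbr1 of the excitatory forebrain lineage. These neurons receive sensory input and carry the learned fear response, while the striatum and the central amygdala beside them consist mainly of GABAergic neurons that lack Slc17a7. A punch that reaches into those neighbours, into the hippocampus or into a white matter tract therefore holds a different share of principal neuron RNA. In bulk tissue, fewer cells of a type and less RNA per cell cannot be told apart.

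The values of Slc17a7, Neurod2 and Neurod6 rose and fell together over the mice, and Rorb had the lowest correlation of all members with each of them. The 250 bases before the annotated start of these 4 genes are therefore shown. The sequences are from RefSeq on GRCm38.p6, and they read 5′ to 3′ along the gene's strand. The capitals mark every match to CANNTG, the E-box that basic helix-loop-helix factors such as the Neurod proteins recognise.
Slc17a7 (plus strand, chr7:45163671-45163920): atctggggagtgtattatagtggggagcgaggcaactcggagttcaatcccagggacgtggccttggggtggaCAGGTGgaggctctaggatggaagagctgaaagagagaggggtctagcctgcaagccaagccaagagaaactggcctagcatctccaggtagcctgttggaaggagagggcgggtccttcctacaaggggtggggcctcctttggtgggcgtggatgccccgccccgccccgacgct
Neurod2 (minus strand, chr11:98329646-98329895): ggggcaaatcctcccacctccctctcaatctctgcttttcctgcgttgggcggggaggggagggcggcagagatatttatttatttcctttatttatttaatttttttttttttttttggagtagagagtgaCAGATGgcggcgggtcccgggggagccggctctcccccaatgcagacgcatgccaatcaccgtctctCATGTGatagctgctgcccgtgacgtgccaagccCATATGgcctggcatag
Neurod6 (minus strand, chr6:55681264-55681513): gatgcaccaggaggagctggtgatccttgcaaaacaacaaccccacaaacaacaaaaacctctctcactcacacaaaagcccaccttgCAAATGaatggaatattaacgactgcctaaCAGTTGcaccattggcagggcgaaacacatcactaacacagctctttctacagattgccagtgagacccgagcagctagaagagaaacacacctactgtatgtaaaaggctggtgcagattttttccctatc
Rorb (minus strand, chr19:19111197-19111446): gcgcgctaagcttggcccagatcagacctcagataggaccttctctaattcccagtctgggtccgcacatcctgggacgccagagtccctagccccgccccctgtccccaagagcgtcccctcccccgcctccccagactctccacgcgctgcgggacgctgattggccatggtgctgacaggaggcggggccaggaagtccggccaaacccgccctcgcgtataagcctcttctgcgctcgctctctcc

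The Slc17a7 window held 1 such match, the Neurod6 window 2 and the Neurod2 window 3, and the Rorb window shown held 0. A second Rorb window in the table, at chr19:19001118-19001367, held 2. Among the windows of members not shown, that of Tbr1 held 1, that of Fezf2 0, those of Lypd1 2, 2 and 1, and those of Etv1 0 and 3. The 4 genes shown were picked by their correlations, so their counts do not link matches to co-variation. CANNTG reads the same on both strands as a pattern, and 66.2% of the 32851 promoter windows of this length in the table held at least 1 match, so a match is common. Among the 3 matches of Neurod2 were 1 CAGATG, searched on both strands and present in 14.4% of all windows, and 1 CATATG, present in 3.46%. CAGCTG, present in 13% of all windows, was not among the matches of the 4 genes shown. A match or its absence describes these letters alone. Windows were matched for 8 of the 10 genes, with none in the table for Rspo2 and Grp.

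Slc17a7 (chromosome 7, bases 45163949 to 45176142 of GRCm38), which encodes the vesicular glutamate transporter VGLUT1, ranged over the 31 mice from 3.01 to 1109 CPM (normalised read counts scaled to a common library size), with a median of 196. In line 1 it had its lowest, median and highest values at 3.01, 124 and 412 CPM in WT mice and at 20.6, 204 and 415 CPM in CYFIP1 OE mice. In line 3 the corresponding values were 147, 291 and 468 CPM in WT mice and 24.9, 191 and 1109 CPM in CYFIP1 OE mice. The groups overlapped throughout, and the WT mice of line 3 had the highest minimum of the 4 groups. The lowest mouse, WT mouse 2 of line 1, had 26 Slc17a7 reads among 7735748 in all, so the defining marker of the labelled tissue was close to absent there.

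The transcription factor genes of the excitatory lineage also varied widely between mice. Neurod6 (chromosome 6, bases 55677822 to 55681263), a helix-loop-helix factor kept by mature pyramidal neurons, ranged from 0.347 to 127 CPM, with medians of 15.0 CPM in WT and 24.9 CPM in CYFIP1 OE mice of line 1, and of 42.3 CPM in WT and 18.3 CPM in CYFIP1 OE mice of line 3. Neurod2 (chromosome 11, bases 98325415 to 98329648), its close relative, ranged from 2.09 to 156 CPM, with group medians between 19.5 and 44.7 CPM. Tbr1 (chromosome 2, bases 61802930 to 61814114), a T-box factor of early-born glutamatergic neurons, ranged from 1.62 to 145 CPM, with group medians between 24.8 and 57.6 CPM. WT mouse 2 of line 1 was the lowest of all 31 mice for each of these 3 genes and for Slc17a7. The highest mouse differed from gene to gene, being CYFIP1 OE mouse 1 of line 3 for Slc17a7 and Neurod2, WT mouse 2 of line 3 for Neurod6 and WT mouse 8 of line 3 for Tbr1.

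Rspo2 and Fezf2 had lower levels. Rspo2 (chromosome 15, bases 43020794 to 43170826), a secreted enhancer of Wnt signalling that marks principal neurons of the anterior BLA, ranged from 0 to 16.1 CPM with a median of 6.52 CPM, and was under 1 CPM in 4 of the 31 mice. Its 1 mouse with 0 reads, WT mouse 6 of line 1, allows a level of up to 0.332 CPM, taking 3 counts as the limit and counting error only. Fezf2 (chromosome 14, bases 12342094 to 12348189), a zinc finger factor of deep-layer projection neurons, ranged from 0.38 to 22.8 CPM and was under 1 CPM in 2 mice. The groups overlapped for both genes.

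Grp (chromosome 18, bases 65872820 to 65886596) encodes gastrin-releasing peptide, which principal neurons of the lateral amygdala release. It ranged from 0 to 40.3 CPM with a median of 4.05 CPM, and it was under 1 CPM in 6 mice. CYFIP1 OE mouse 7 of line 1 and CYFIP1 OE mouse 7 of line 3 had 0 reads, which allow up to 0.379 and 0.47 CPM. Its coefficient of variation over the mice was 138%, the largest of the 10 genes.

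Lypd1, Etv1 and Rorb had no mouse under 10 CPM and spanned less from the lowest to the highest mouse. By coefficient of variation Lypd1 (79.5%) was above Rspo2 (70.2%). Lypd1 (chromosome 1, bases 125867622 to 125913101), which encodes a membrane-anchored modulator of nicotinic receptors, ranged from 27.2 to 420 CPM. Etv1 (chromosome 12, bases 38779380 to 38870484), an ETS factor of layer 5 neurons, ranged from 31.1 to 119 CPM. Rorb (chromosome 19, bases 18930605 to 19111196), a nuclear receptor known for layer 4 of the sensory cortex, stayed between 24.0 and 45.3 CPM. The highest mouse was thus 368 times the lowest for Slc17a7 and 1.89 times the lowest for Rorb.

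Set against all 17428 tested genes, 7 of the 10 genes lay near the top of the spread between mice. The residual SD of log2 CPM (with a prior count of 2) after sex, line and genotype had been removed was 1.89 for Grp, 1.79 for Neurod6, 1.77 for Slc17a7, 1.75 for Tbr1, 1.61 for Neurod2, 1.51 for Rspo2 and 1.34 for Fezf2, against a median of 0.517 over all tested genes. Their percentiles ran from 97.34 for Fezf2 to 99.48 for Grp. Lypd1 had an SD of 1.01 (percentile 87.56). Etv1, with an SD of 0.469 (percentile 44.49), and Rorb, with an SD of 0.233 (percentile 7.534), lay below that median.

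**Figure D1:**
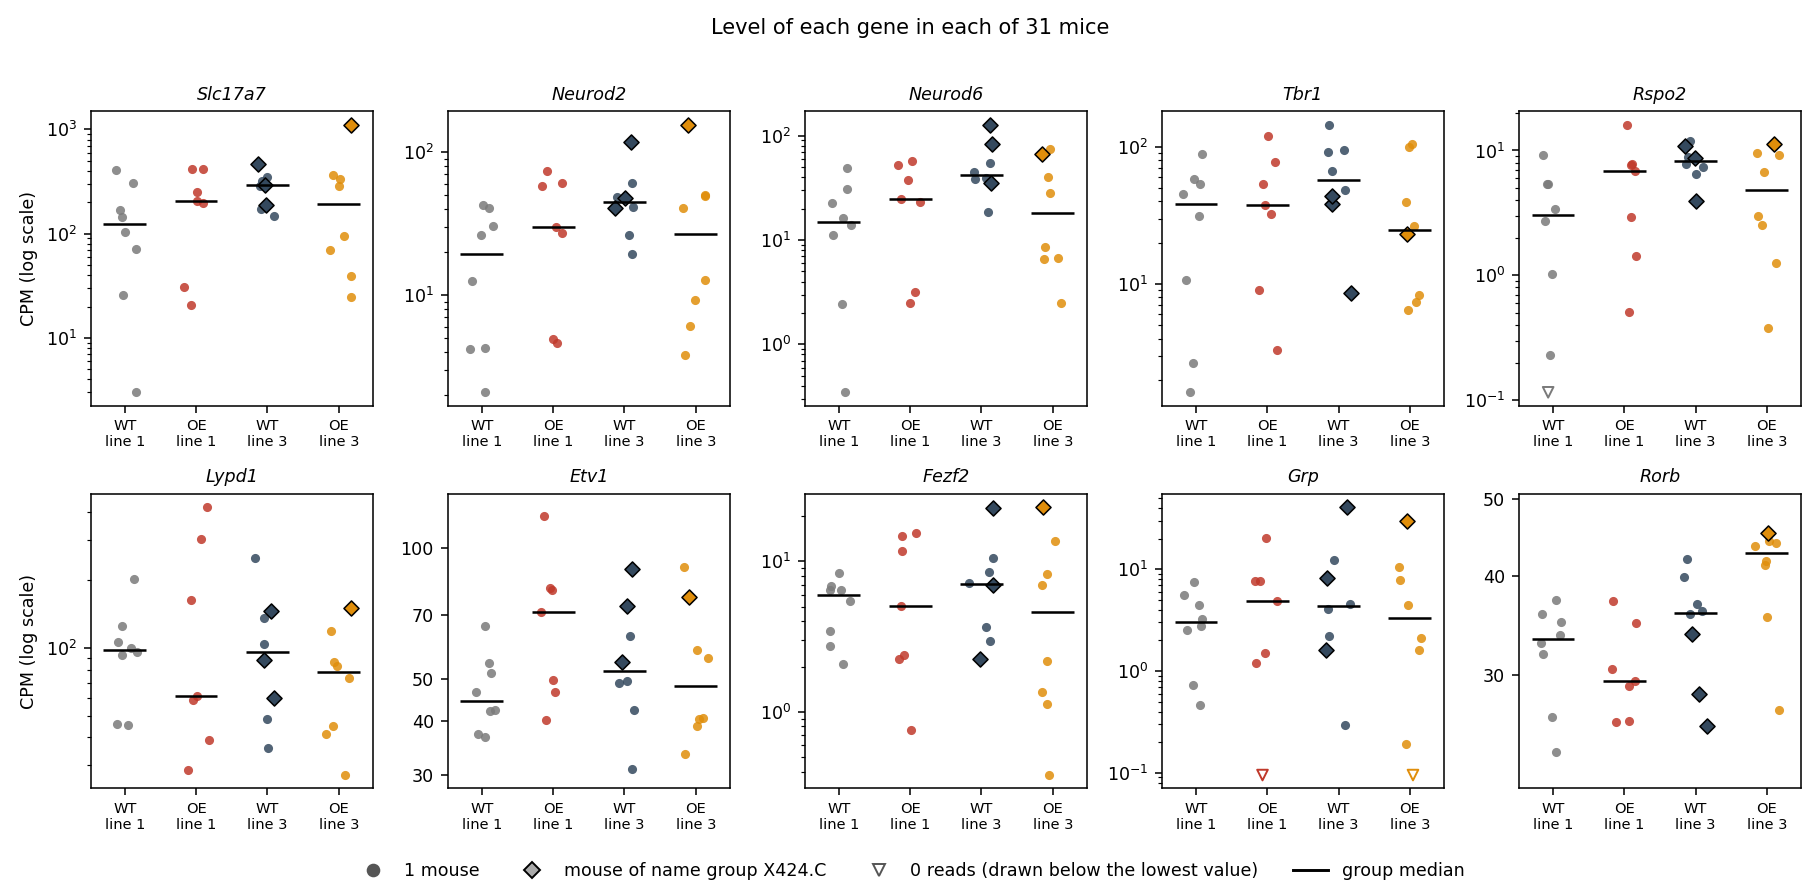
Level of each of the 10 genes in CPM (log scale) in the 31 mice, by genotype and line. Points are mice, black bars are group medians, diamonds are the 4 mice of name group X424.C and open triangles are mice with 0 reads. The groups overlap for every gene, and Slc17a7 runs from 3.01 to 1109 CPM while Rorb stays between 24.0 and 45.3 CPM.

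Facts of the whole series bear on these ranges. Total counts were 5286708 to 8685308 per mouse. CYFIP1 OE mouse 1 of line 3 had a connectivity Z-score (how strongly its profile correlates with the others) of -4.743 and is given with and without below. Mouse Cyfip1 itself had medians of 35 CPM in WT and 33.8 CPM in CYFIP1 OE mice (log2 fold change -0.02 ± 0.08 SE, edgeR adjusted p = 0.999), and the human transcript is not a gene of the tables, so these values do not check the genotype labels. A name group here is a set of mice with a common first part to their sample names, and 7 of the 8 WT mice of line 1 came from 1 such group.

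Slc17a7, Neurod2 and Neurod6 moved almost as 1 signal over the mice. After sex, line and genotype had been removed, log2 CPM of Slc17a7 correlated with Neurod2 at Pearson's r = 0.946 and Spearman's rho = 0.971, and with Neurod6 at r = 0.945 and rho = 0.917, and Neurod2 with Neurod6 at r = 0.929 and rho = 0.936. Each of these had a two-sided permutation p of 1e-05, the smallest that 100000 permutations can give, and an adjusted p of 5.54e-05 over the 155 relations tested (45 pairs of members and 110 of a member with a marker list). Without the 2 mice farthest from the median of the first gene, r was 0.956, 0.908 and 0.917. Within line 1 these r were 0.931, 0.975 and 0.925, and within line 3 they were 0.981, 0.891 and 0.941. With the means of the name groups removed as well, an alternative added after the data were seen, the 3 values lay between 0.912 and 0.937.

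The next closest pairs were Slc17a7 with Rspo2 and Neurod2 with Fezf2, both at r = 0.849 (rho = 0.86 and 0.8). Tbr1 correlated with Slc17a7 at r = 0.834 (rho = 0.754) and Rspo2 with Neurod6 at r = 0.829 (rho = 0.816). Grp, the peptide gene, followed Fezf2 at r = 0.799 (rho = 0.785) and Slc17a7 at r = 0.731 (rho = 0.739). All of these had a permutation p of 1e-05 for both measures and an adjusted p of 5.54e-05. Over the 21 pairs among Slc17a7, Neurod2, Neurod6, Tbr1, Rspo2, Fezf2 and Grp the median r was 0.796, from 0.469 for Tbr1 with Grp to 0.946, a grouping chosen after the values were seen and given as a description.

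Lypd1, Etv1 and Rorb had lower median correlations with the other members. Lypd1 was closest to Grp (r = 0.74, rho = 0.831, permutation p = 1e-05 for both). Next were Fezf2 (r = 0.562, adjusted permutation p = 0.0029), Slc17a7 (0.5, adjusted p = 0.0131), Neurod2 (0.495, adjusted p = 0.0137), Etv1 (0.47, adjusted p = 0.0211) and Neurod6 (0.457, adjusted p = 0.026). The relation of Lypd1 with Etv1 had rho = 0.401 (adjusted permutation p = 0.0614). It fell to r = 0.247 without the 2 mice farthest from the median of Lypd1. The r of Lypd1 with Tbr1 was 0.302 (rho = 0.29, permutation p = 0.0982 and 0.115, adjusted p = 0.173 and 0.198). Etv1 had a median r of 0.317 with the other members, with its highest value for Grp (r = 0.533, rho = 0.412, permutation p = 0.00218 and 0.0221, adjusted p = 0.00676 and 0.0553). That relation fell to r = 0.334 without the 2 mice farthest from the median of Etv1, so it rested in part on them.

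Rorb gave the 5 lowest of the 45 pairs. They were Rorb with Grp (r = -0.27), Lypd1 (-0.266), Etv1 (-0.208), Neurod2 (-0.161) and Neurod6 (-0.117), with permutation p between 0.14 and 0.534, adjusted p between 0.217 and 0.618, and rho between -0.286 and -0.077. Over all 9 of its pairs the median r was -0.117, from -0.27 to 0.076. A p that misses the threshold does not show that Rorb varied independently of the others.

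Over all 45 pairs the median r was 0.533, with a jackknife SE over mice of 0.147, and 23 pairs (51.1%) had an r over 0.5. Of the 174270 pairings of a member with any other tested gene, 4.05% had an r over 0.5, and their median was 0.001. The median over the 45 pairs was 0.519 without CYFIP1 OE mouse 1 of line 3, 0.551 without the 4 mice of name group X424.C, 0.516 within line 1 and 0.565 within line 3. All these correlations are over mice that share the design, and CPM are shares of a library, so that a rise of abundant genes lowers the shares of others.

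**Figure D2:**
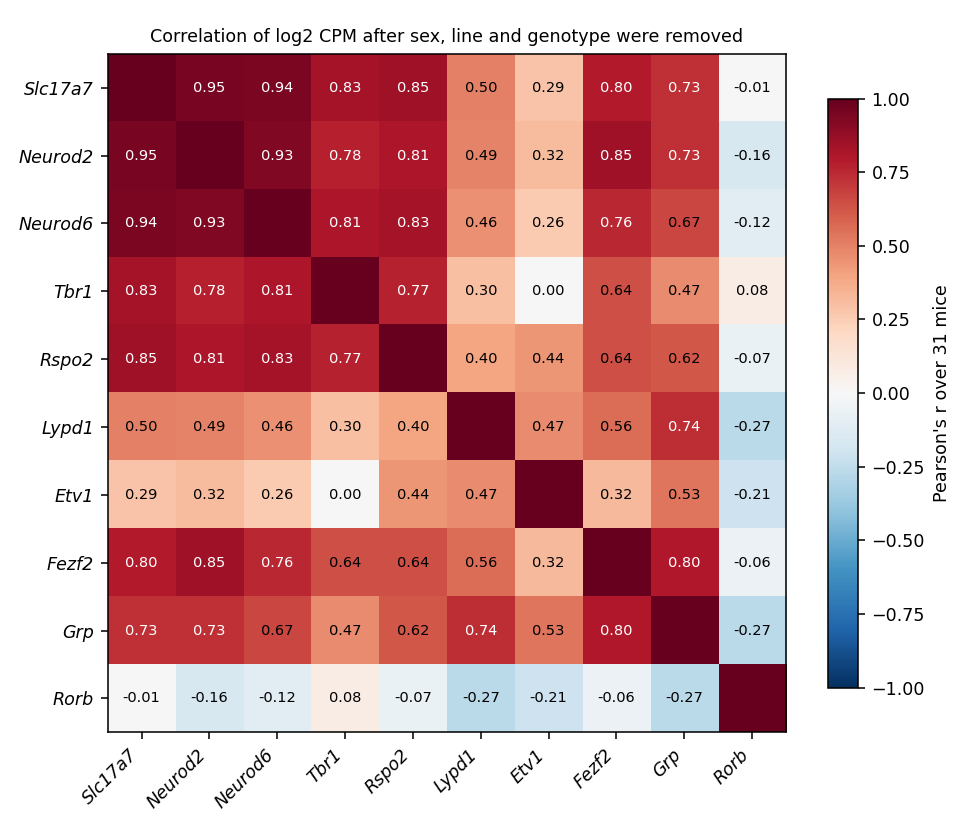
Pearson's r between each pair of the 10 genes over 31 mice, from log2 CPM after sex, line and genotype were removed. The block of Slc17a7, Neurod2 and Neurod6 lies between 0.929 and 0.946, and the row of Rorb lies between -0.27 and 0.076.

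The genes whose values were most like those of the members were ranked by Pearson's r among all tested genes. Slc17a7 was closest to Cck, the cholecystokinin gene (r = 0.956), followed by Neurod2 and Neurod6. Neurod2 was closest to Bdnf, the neurotrophin gene (r = 0.953), and then to Olfm1 (0.948) and Slc17a7. Neurod6 had Slc17a7, Bdnf (0.932) and Neurod2 as its nearest 3. Rspo2 was closest to Cck (0.886), Pgm2l1 (0.871) and Pde1a (0.86).

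Tbr1 had other neighbours, with Nr4a2, an orphan nuclear receptor of claustrum and deep cortex, at r = 0.937, Vxn at 0.934 and the syntaxin gene Stx1a at 0.887. Fezf2 was closest to Basp1 (0.877), Napb (0.873) and Syt17 (0.869). Grp was closest to the helix-loop-helix factor gene Bhlhe22 (0.895), to the pentraxin receptor gene Nptxr (0.881) and to Nr2f1 (0.878). Lypd1 was closest to Hpcal1 (0.874), Nr2f2 (0.863) and Pcdh19 (0.836), and Nr2f1 and Nr2f2 encode related COUP-TF nuclear receptors.

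Etv1 was closest to Spink8 (r = 0.75), which marks hippocampal pyramidal neurons, and then to Clmn (0.666) and Galnt16 (0.664). Rorb was closest to Dlg2 (0.747), Purb (0.741) and Zc3h11a (0.736). Etv1 had 1 gene with an r over 0.7, against 208 for Slc17a7 and 287 for Neurod2. These likenesses were over 31 mice, were ranked among 17427 other genes and are a description.

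Of 28 other forebrain glutamatergic genes, 13 had an r over 0.7 with Slc17a7 and 5 an r under 0. Those over 0.7 included Cck, Sv2b (a synaptic vesicle protein gene, r = 0.937), Bdnf and Nrn1 (0.904). The 2 most abundant of the list were Nrgn, at r = 0.139 with a range of 807 to 3211 CPM, and Camk2a, at r = 0.634 with a range of 476 to 2350 CPM. Bcl11b (r = -0.437), Arpp21 (-0.432) and Baiap2 (-0.428) had the lowest values, and Bcl11b and Arpp21 are also abundant in striatal neurons. The score of the whole list, the mean of its standardised values, correlated with Slc17a7 at r = 0.888 and rho = 0.871 (both permutation p = 1e-05) and with Rorb at r = 0.165 and rho = 0.203 (permutation p = 0.375 and 0.271). All marker lists were chosen with earlier results of these data known, and this one holds Cck and Bdnf, the nearest genes of Slc17a7 and Neurod2. The p-values of list scores are therefore given as a description.

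Oligodendrocyte markers moved against most members. All 8 oligodendrocyte genes had an r under -0.5 with Slc17a7, with a median of -0.694, and their summed level ranged from 1109 to 8887 CPM (1431 to 8887 in WT and 1109 to 5114 in CYFIP1 OE mice). The list's score correlated with Slc17a7 at r = -0.713 and rho = -0.783 (permutation p = 1e-05 and 2e-05, adjusted p = 5.54e-05 and 9.39e-05). Mbp, the gene of myelin basic protein, had r = -0.721. The strongest relation of this list was with Fezf2 (r = -0.789, rho = -0.784, both permutation p = 1e-05). With Rorb it was r = 0.006 and rho = 0.003 (adjusted permutation p = 0.997 and 0.989).

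The striatal and central amygdala list, of which 11 of 12 genes were tested and Drd2 was not, ran against several members. All 11 had an r under 0 with Slc17a7, with a median of -0.493, and the summed level ranged from 357 to 6829 CPM (357 to 6137 in WT and 387 to 6829 in CYFIP1 OE mice). Its most abundant genes were Penk (65 to 1932 CPM) and Ppp1r1b (111 to 2208 CPM), the latter also a marker of principal neurons of the posterior BLA. The score correlated with Slc17a7 at r = -0.539 and rho = -0.698 (permutation p = 0.00301 and 1e-05, adjusted p = 0.00915 and 5.54e-05), with an r of -0.254 within WT and -0.779 within CYFIP1 OE mice. Its strongest relations were with Grp (r = -0.707, rho = -0.659, adjusted permutation p = 5.54e-05 and 0.00031) and Neurod2 (r = -0.685, rho = -0.767, adjusted permutation p = 0.000137 and 5.54e-05). For Tbr1 it was r = -0.175 and rho = -0.327 (permutation p = 0.352 and 0.0747). Of the GABA neuron list, 4 of 8 genes had an r under -0.5 with Slc17a7, among them Slc32a1 (-0.637) and Gad2 (-0.573). The others were positive, with Sst at 0.627, Vip at 0.596, Npy at 0.337 and Lhx6 at 0.115. Over the GABA list the median r was -0.21, and its score had r = -0.271 and rho = -0.285 (permutation p = 0.14 and 0.119, adjusted p = 0.217 and 0.2).

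The score of the pan-neuronal list correlated with Slc17a7 at r = 0.742 and rho = 0.83 (permutation p = 2e-05 and 1e-05, adjusted p = 0.0001 and 5.54e-05), while the median r of its 8 genes was 0.314 (Syt1 0.675, Snap25 0.366). For the remaining lists the median r with Slc17a7 was -0.292 for 6 astrocyte genes (Slc1a2 0.006, Slc1a3 0.223), -0.149 for 5 microglia genes (Cx3cr1 -0.069, Csf1r -0.23), -0.137 for 3 endothelial genes (Flt1 -0.159, Pecam1 -0.137) and -0.092 for 3 intercalated cell genes (Foxp2 -0.489, Tshz1 0.117). It was 0.252 for 4 of 5 hippocampal genes (Prox1 -0.353, Fibcd1 0.203, Dsp not tested) and -0.172 for 2 of 5 thalamic and hypothalamic genes (Tcf7l2 -0.378, Lef1 0.034). The genes given with an r are the most abundant of each of these lists. Of the 6 astrocyte genes 4 had an r under 0, down to -0.658. The astrocyte score had r = -0.456 and rho = -0.398 with Slc17a7 (adjusted permutation p = 0.0257 and 0.0647). With Tbr1 it had r = -0.568 and rho = -0.617 (adjusted permutation p = 0.00276 and 0.000829). Etv1 alone among the members had its strongest list relation with the hippocampal list, at r = 0.671 and rho = 0.68 (permutation p = 7e-05 and 6e-05, adjusted p = 0.000271 and 0.000245). Without the 2 mice farthest from the median of Etv1 it was 0.567. The part of these lists in the members' variation was not tested.

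**Figure D3:**
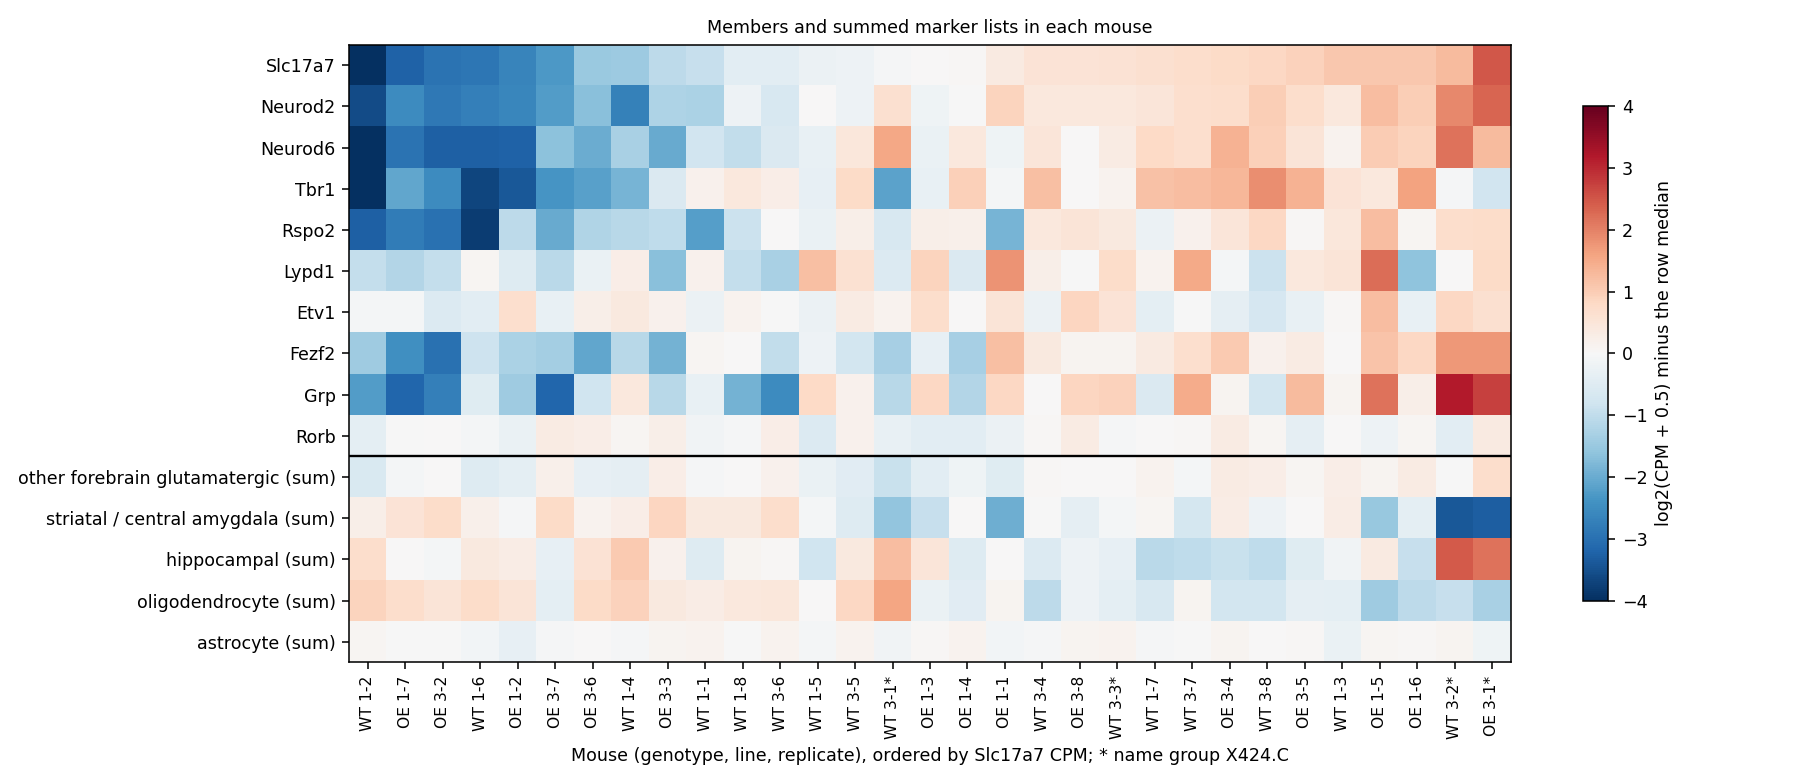
Level of each gene, and the summed level of 5 marker lists, in the 31 mice ordered by Slc17a7, as log2(CPM + 0.5) minus the row's median. Mice run from WT mouse 2 of line 1 (Slc17a7 at 3.01 CPM) on the left to CYFIP1 OE mouse 1 of line 3 (1109 CPM) on the right. The summed striatal list is 4422 CPM in the first and 387 CPM in the last, and asterisks mark name group X424.C.

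The 4 mice of name group X424.C, 3 WT and 1 CYFIP1 OE of line 3, had a different balance among the members. The ratio of Tbr1 to Slc17a7 CPM was between 0.021 and 0.147 in these 4 mice and between 0.103 and 0.538 in the other 27, and 3 of the 4 lay below all of the others. The ratio of Neurod6 to Tbr1 was between 0.813 and 9.59 in the 4 and between 0.214 and 1.17 in the 27, and 3 of the 4 lay above all of the others. WT mouse 1 of line 3, for example, had Neurod6 at 82.7 CPM with Tbr1 at 8.6 CPM.

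Marker levels of other regions differed in the same 3 mice. The summed hippocampal list was 267 CPM in WT mouse 2, 223 CPM in CYFIP1 OE mouse 1 and 115 CPM in WT mouse 1 of line 3, against a median of 48.8 CPM over all mice, and no other mouse was above 102 CPM. Fibcd1, a gene of hippocampal CA1 neurons, stood at 77.6 and 122 CPM in the first and second of these, and Prox1, a gene of dentate granule neurons, at 135 and 66.5 CPM. In WT mouse 1 Fibcd1 was at 2.8 CPM, below its median of 5.45 CPM, and most of the hippocampal sum was Prox1, at 100.9 CPM. Prox1 also reached 84.5 CPM in WT mouse 4 of line 1, where Fibcd1 was at 8.1 CPM. The summed striatal list of WT mouse 2 and CYFIP1 OE mouse 1 was at 357 and 387 CPM, the lowest of all 31 mice. WT mouse 1 had the highest oligodendrocyte sum, 8887 CPM. The part of these markers in the altered balance was not tested.

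With the means of the name groups removed, Tbr1 correlated with Slc17a7 at r = 0.916 and with Neurod6 at r = 0.897, compared with 0.834 and 0.808 when they were kept. Within line 1, which has none of these mice, the r of Tbr1 was 0.909 with Slc17a7 and 0.934 with Neurod6. Within line 3 it was 0.687 and 0.576.

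**Figure D4:**
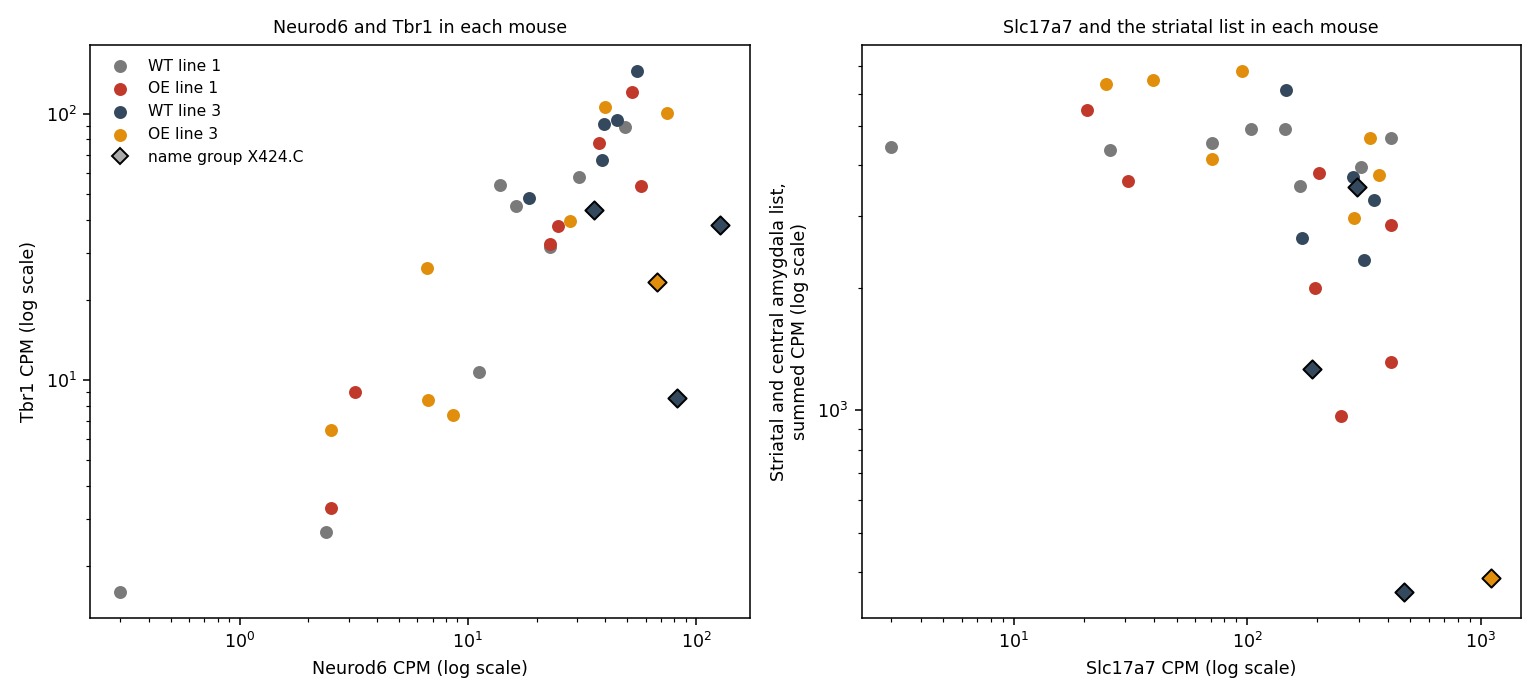
Tbr1 against Neurod6 CPM (left) and the summed CPM of the striatal and central amygdala list against Slc17a7 CPM (right) in the 31 mice, all axes on log scales. Diamonds mark name group X424.C, of which 3 mice lie to the lower right of the others on the left, at Neurod6 to Tbr1 ratios up to 9.59. On the right the 2 mice with the highest Slc17a7, at 468 and 1109 CPM, have the lowest striatal sums.

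No member passed a test for a difference between CYFIP1 OE and WT mice. In edgeR's quasi-likelihood test over both lines, 0 of 10 members had an adjusted p under 0.05 (0% of all tested genes did), 0 had an unadjusted p under 0.005 (0.293% of all tested genes did) and 0 had an unadjusted p under 0.05 (4.3% did). DESeq2 gave 0 at each of these as well. The median log2 fold change of the 10 was 0.121, with 8 positive and 2 negative estimates, beside a median of -0.005 over all tested genes. The direction turned with the fit. With 5 surrogate variables 9 of 10 estimates were negative, with a median of -0.51 and 6 members at an unadjusted p under 0.05 (smallest edgeR adjusted p = 0.672). The share of all tested genes at that p is not given for that fit, so the 6 cannot be read as an excess. Without CYFIP1 OE mouse 1 of line 3, 7 of 10 were negative, with a median of -0.07. The smallest p was that of Etv1, at 0.136, and it was 0.0203 without name group X424.C.

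The intervals were wide for the most variable genes. Slc17a7 averaged 216 ± 137 CPM (SD, n = 16) in WT and 257 ± 276 CPM (SD, n = 15) in CYFIP1 OE mice, a fitted fold of 1.18 with a 95% confidence interval of 0.602 to 2.32 (edgeR adjusted p = 0.999). Tbr1 averaged 51.8 ± 39.1 and 43.4 ± 39.5 CPM, a fold of 0.871 (0.44 to 1.72). Rspo2 averaged 5.83 ± 3.7 and 5.8 ± 4.58 CPM, a fold of 1.07 (0.565 to 2.02). Rorb averaged 33.5 ± 5.06 and 35.8 ± 7.25 CPM, and its fold of 1.05 had the narrowest interval, 0.929 to 1.2.

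Within line 1, 9 of 10 members had higher fitted levels in CYFIP1 OE mice, but 0 passed an adjusted p of 0.05 in edgeR or DESeq2, as did 0% of all tested genes in edgeR. With 5 surrogate variables the direction turned, with 9 of 10 estimates negative, a median of -0.85 and 6 members at an unadjusted p under 0.05. The smallest edgeR adjusted p of a member was then 0.624, and the share of all tested genes under 0.05 is not given for that fit. In the fit without them the median log2 fold change was 0.596, beside 0.002 over all tested genes, with Neurod2 at 0.84 ± 0.66 (SE), Rspo2 at 0.84 ± 0.63 and Slc17a7 at 0.48 ± 0.68. At an unadjusted p under 0.05 there was 1 member of 10, Etv1, where 3.96% of all tested genes passed. Since the members vary together, their 9 estimates are not 9 separate observations. In line 1, 7 of the 8 WT mice were of name group X426.B, which held no CYFIP1 OE mouse. X429.A was the only name group of this line with both genotypes, so genotype and name group can hardly be told apart there. The striatal list had a median log2 fold change of -0.725 and the oligodendrocyte list of -0.445 in the same comparison, and the part of either in the members' values was not tested.

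Etv1 ranged from 36.7 to 66 CPM in the 8 WT mice of line 1 (median 44.6) and from 40.3 to 119 CPM in the 7 CYFIP1 OE mice (median 71.2). The groups overlapped, and 6 of the 7 CYFIP1 OE mice lay above the WT median. The log2 fold change was 0.59 ± 0.22 (SE), a fold of 1.51 (95% interval 1.1 to 2.07), with an edgeR p of 0.0111 and an adjusted p of 1. The 4 mice of 77 days had 118.6, 80.7, 79.8 and 49.7 CPM, and the 3 younger CYFIP1 OE mice 71.2, 46.7 and 40.3 CPM. Without the mice of 77 days the log2 fold change was 0.11, and no member had an unadjusted p under 0.05. Age and genotype cannot be told apart at 77 days, since no WT mouse was of that age.

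Within line 3 the estimates ran the other way for most members, and again 0 of 10 passed an adjusted p of 0.05 in edgeR or DESeq2 (0% of all tested genes in edgeR) and 0 an unadjusted p of 0.05, where 7.93% of all tested genes did. The median log2 fold change was -0.344, beside -0.019 over all tested genes, with 8 negative and 2 positive estimates. Neurod6 had lowest, median and highest values of 18.5, 42.3 and 127 CPM in WT mice and of 2.47, 18.3 and 74.5 CPM in CYFIP1 OE mice. Its log2 fold change was -0.92 ± 0.63 (SE, edgeR adjusted p = 0.739). For Tbr1 it was -0.83 ± 0.65 (edgeR adjusted p = 0.779), and 2 of the 8 values in CYFIP1 OE exceeded the WT median of 57.6 CPM. For Slc17a7 the estimate was 0.01 ± 0.66, and it was -0.68 without CYFIP1 OE mouse 1, the mouse at 1109 CPM. Without that mouse the median over the 10 genes was -0.76, and it was -0.61 without name group X424.C.

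Rorb was the member with the smallest p in line 3. It ranged from 25.9 to 42.1 CPM in WT mice (median 35.9) and from 27.1 to 45.3 CPM in CYFIP1 OE mice (median 42.7), and 6 of the 8 CYFIP1 OE mice lay above the WT median. The log2 fold change was 0.21 ± 0.12 (SE, 95% interval -0.04 to 0.46, edgeR adjusted p = 0.688). Without name group X424.C, whose 3 WT mice had 25.9, 28.4 and 33.8 CPM, and whose CYFIP1 OE mouse had 45.3 CPM, it was 0.05. The normalisation factor, by which CPM are divided, ran from 0.7469 to 1.012 in the CYFIP1 OE mice of line 3 and from 0.8142 to 1.142 in its WT mice. The lowest factor was that of the mouse at 45.3 CPM, and the part of these factors in the Rorb values was not tested.

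**Figure D5:**
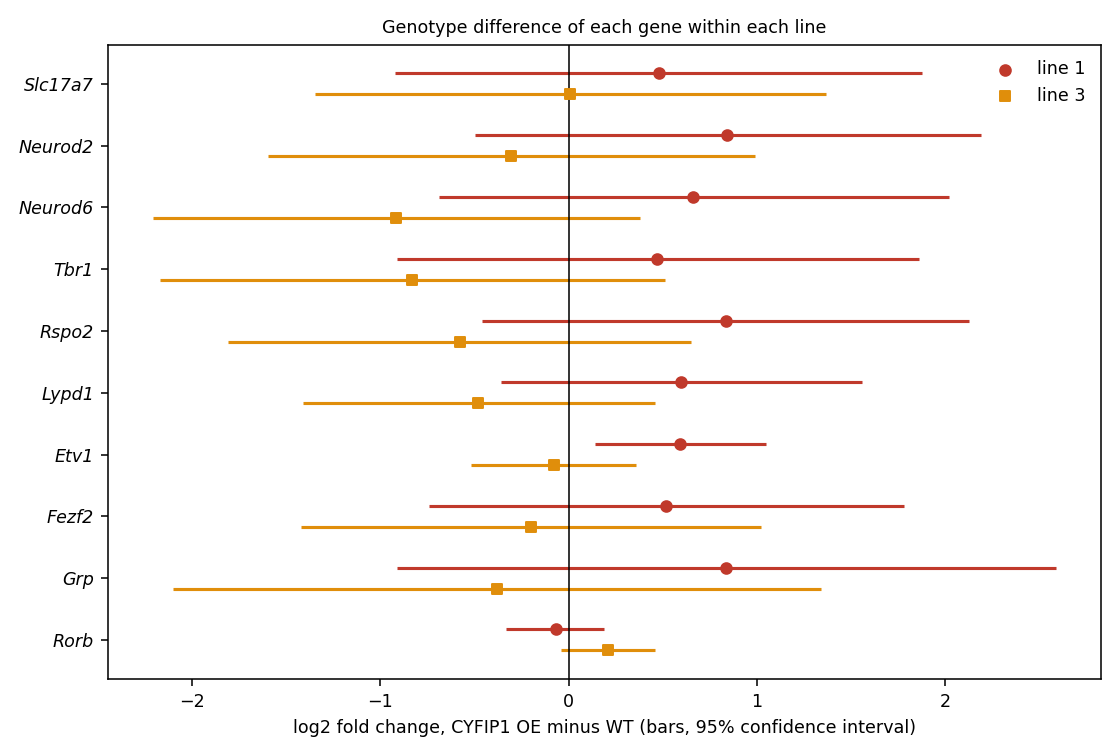
Log2 fold change (CYFIP1 OE minus WT) of each gene within line 1 (circles) and line 3 (squares), with 95% confidence intervals from the edgeR fit. In line 1 the interval of Etv1 (0.14 to 1.05) lies above 0, and all other intervals in both lines cross 0.

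The difference between the lines was itself tested as an interaction of genotype and line. Of the 10 members 0 passed an adjusted p of 0.05 in edgeR or DESeq2 (0% of all tested genes in edgeR), and 1 passed an unadjusted p of 0.05, again Etv1 (log2 difference -0.67 ± 0.31 SE, edgeR adjusted p = 0.582), where 8.1% of all tested genes did. The estimates were negative for 9 of 10, with a median of -1.114 beside -0.014 over all tested genes. Neurod6 had -1.58 ± 0.91 (SE, edgeR adjusted p = 0.691) and Rspo2 -1.42 ± 0.87 (SE, edgeR adjusted p = 0.712). In the same test the striatal list had a median log2 difference of 1.432 with 7 of 11 genes at an unadjusted p under 0.05, all of them positive, and 0 at an adjusted p of 0.05. Genes of 1 list can vary together, so these 7 need not be 7 separate observations. In name group X424.C the striatal sums were 1259, 357 and 3544 CPM in WT mice and 387 CPM in the CYFIP1 OE mouse. The result of the striatal list without that group is not given. The part of these markers in the members' values was not tested.

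Sex and line were compared in the same fit. Between males and females 0 of 10 passed an adjusted p of 0.05 in edgeR or DESeq2, which 0.0631% of all tested genes did, and 0 an unadjusted p of 0.05, which 4.62% did, with the smallest p at 0.279 for Etv1. Between the lines 0 of 10 passed an adjusted p of 0.05 in edgeR or DESeq2 (0% of all tested genes in edgeR), and 1 of 10 passed an unadjusted p of 0.05, where 3.31% of all tested genes did. This was Rorb, whose lowest, median and highest values were 24.0, 31.9 and 37.3 CPM in line 1 and 25.9, 38.3 and 45.3 CPM in line 3. Of the 16 mice of line 3, 13 lay above the line 1 median, and the log2 fold change was 0.25 ± 0.09 (SE, edgeR p = 0.00814, adjusted p = 1), with p = 0.000887 without name group X424.C. Slc17a7 averaged 185 ± 148 CPM (SD, n = 15) in line 1 and 285 ± 255 CPM (SD, n = 16) in line 3 (edgeR p = 0.187).

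In single comparisons 0.189% (line) to 0.93% (genotype in line 3) of all tested genes had an unadjusted p under 0.005. Of the marker lists, 3 genes did in any of these comparisons, and none had an adjusted p under 0.05. They were Elavl4, a neuronal RNA-binding protein gene, for genotype by line (log2 difference -1 ± 0.33 SE, edgeR adjusted p = 0.535), Prkcd, which marks central amygdala neurons, for sex (1.49 ± 0.38, male minus female, edgeR adjusted p = 0.478), and Fibcd1 for line (1.51 ± 0.5, line 3 minus line 1, edgeR adjusted p = 1). Of the 28 other forebrain glutamatergic genes 0 passed an unadjusted p of 0.05 for genotype over both lines (4.3% of all tested genes did). Within line 1, 2 did (3.96% of all), both with positive estimates, and within line 3, 2 did (7.93% of all), both positive too. The median log2 fold change of that list was 0.172 in line 1 and -0.171 in line 3.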

How the data were processed

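BLA RNA of 31 mice was sequenced by QuantSeq, and each mouse was taken as 1 replicate. The authors mapped reads with STAR to GRCm38, used Salmon for quantification, and for each mouse deposited a table of expected counts (estimated counts with decimals, not normalized). Groups, sex and age came from the sample labels. The members and gene lists were chosen with earlier results of these data known. Of the 465 pairs of mice 0 had identical counts.

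Counts were rounded, and a gene was kept when 20% or more of the mice had 10 reads or more (17428 of 48709 genes). CPM are TMM-normalized. Differences were tested with edgeR 4.0.16 (quasi-likelihood, terms sex, line and genotype, or genotype within each line, two-sided, Benjamini-Hochberg adjustment), DESeq2 1.42.0 being an alternative. The study's 5 sequencing principal components were not used here, and 5 surrogate variables (sva 3.50.0) served in an alternative. Intervals are 95% intervals from the fit. Correlations of log2 CPM (prior count 2) were tested by two-sided permutation (numpy 2.4.6, scipy 1.17.1). A list's score is the mean of its genes' standardized residuals. Genes printed were the members, the 3 genes most correlated with each, the 5 highest and 5 lowest pairs, and from each list the 2 of highest mean CPM and those with a p under 0.005. A gene that this rule names is not reported here. Further genes of the lists, the ratios of members and the grouping of the 7 were named after their values were seen. The sources do not say how counting treated shared reads, and precision at low levels is set by the read counts. In simulated counts of 17428 genes for the genotype comparison, edgeR recovered 196 of 200 genes changed by 1 on the log2 scale with 11 false calls, with dispersions capped at their median. That setting does not match the 7 members with a residual SD of 1.34 to 1.89, against a median of 0.517 over all tested genes. It therefore cannot show that such a change in them would have been found.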

Additional observations from a re-analysis of the deposited data

Results flagged for a closer look

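In 40 group and gene combinations of 7 or 8 mice, a mouse stood apart from the rest of its group 7 times, by a gap to its nearest neighbour larger than Dixon's 95% limit for the group's range. Chance flags about 1 in 20 groups only where values are normally distributed. The CPM used here were not log-transformed and all 7 flags were high values, so that rate need not hold. The 10 genes are also correlated, so that 1 mouse can be flagged for several. CYFIP1 OE mouse 1 of line 3 stood above its group for Slc17a7 at 1109 CPM (the next mouse had 368 CPM), for Neurod2 at 156.1 CPM (next 50.6 CPM) and for Grp at 29.92 CPM (next 10.4 CPM). WT mouse 2 of line 3, of the same name group, stood above its group for Neurod2 at 117.5 CPM (next 60.9 CPM), for Fezf2 at 22.65 CPM (next 10.6 CPM) and for Grp at 40.34 CPM (next 12.2 CPM). CYFIP1 OE mouse 5 of line 1, aged 77 days, stood above its group for Grp at 20.09 CPM (next 7.6 CPM).

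These mice also had low striatal sums, at 387, 357 and 1314 CPM. The part of this in the values was not tested.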

How the results depend on the processing

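The count of members with an adjusted p under 0.05 was 0 in every comparison under every alternative run (DESeq2, DESeq2 size factors, no filter on low counts, 5 surrogate variables, age as a covariate, and fits without the mice aged 77 days, without CYFIP1 OE mouse 1 of line 3, without name group X424.C, in name groups with both genotypes or in each line alone, each where it applied). The median correlation between members stayed between 0.424 (WT mice alone) and 0.629 (CYFIP1 OE mice alone). The signs of single estimates were less stable. Of the log2 fold changes for genotype 25 changed sign and 65 did not, in line 1 these counts were 10 and 70, and in line 3 they were 9 and 71. The causes were not tested.

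For genotype over both lines, the log2 fold changes that changed sign with 5 surrogate variables were -0.76 for Slc17a7, -0.58 for Neurod2, -0.38 for Rspo2, -0.24 for Lypd1, -0.74 for Fezf2, -0.44 for Grp and -0.0064 for Rorb. In that fit 9 of 10 members were lower in CYFIP1 OE mice and 6 had an unadjusted p under 0.05, with no share of all tested genes given for it. With age as a covariate they were -0.49 for Rspo2, -0.18 for Lypd1 and -0.22 for Grp, and without the mice aged 77 days -0.49 for Rspo2, -0.25 for Lypd1, -0.0156 for Etv1 and -0.22 for Grp. Without CYFIP1 OE mouse 1 of line 3 they were -0.0756 for Slc17a7, -0.059 for Neurod2, -0.0238 for Lypd1, -0.0847 for Fezf2 and -0.19 for Grp. Without name group X424.C they were 0.0294 for Neurod6 and -0.0149 for Rorb, and in name groups with both genotypes -0.0216 for Slc17a7, -0.10 for Neurod2, -0.72 for Rspo2 and -0.29 for Lypd1.

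In line 1, those with 5 surrogate variables were -1.00 for Slc17a7, -0.71 for Neurod2, -1.11 for Neurod6, -1.01 for Tbr1, -0.0967 for Rspo2, -0.51 for Lypd1, -1.27 for Fezf2 and -1.52 for Grp, and without the mice aged 77 days -0.26 for Rspo2 and 0.067 for Rorb. In line 3, Slc17a7 became -0.007 with no filter, -0.47 with 5 surrogate variables, -0.0079 without the mice aged 77 days, -0.68 without CYFIP1 OE mouse 1 and -0.55 without name group X424.C. With 5 surrogate variables Lypd1 became 0.14, Etv1 0.14 and Grp 0.93, and without name group X424.C Etv1 became 0.11. At an unadjusted p under 0.005, line 1 gained 1 member with no filter (Etv1) and 1 with 5 surrogate variables (Fezf2), and the comparison of lines gained 1 without name group X424.C (Rorb). In the main edgeR fit 0.35% of all tested genes passed that p for genotype in line 1 and 0.189% for line. The share is not given for the alternative fits, so these gains cannot be read as an excess.

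No paired analysis was possible because replicate numbers were given in accession order and pair no mice. Name group served as the block in the fit of name groups with both genotypes (18 mice), where 4 estimates were positive and 6 negative and the smallest adjusted p was 0.999. Levels near 0 reads limit what can be read from Rspo2, Fezf2 and Grp, and each line came from 1 founder, so that line and founder cannot be told apart.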
